A study of Mus musculus with 12 samples.

Results

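The steroid receptors and the enzymes that convert their ligands were examined in newborn mouse bladder. The 8 genes were Esr1, Pgr, Nr3c1 and Nr3c2, which encode receptors, and Srd5a1, Srd5a2, Hsd11b1 and Hsd11b2, which encode enzymes. A probe set was taken where 1 of these genes was its only gene symbol. This gave 15 of the 45037 probe sets other than controls, and they stood for 6 of the 8 genes, since no probe set named for Srd5a1 or Srd5a2 alone was found in the annotation used here. The rule names the genes and sets no threshold on their values.

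RNA from whole bladders at postnatal day 1 was hybridised to 12 one-colour arrays, and the series asked what a smooth muscle reporter transgene does to the expression profile. The SMGA/EGFP group (3 arrays) carried EGFP, a green fluorescent protein, under the promoter of Actg2, the smooth muscle gamma actin gene. The SMAA/EYFP group (3 arrays) carried EYFP, a yellow fluorescent protein, under the promoter of Acta2, the smooth muscle alpha actin gene. The other 6 arrays were labelled wild type. All 3 groups were of the FVB/N strain, labelled male and not pooled, so that each array stood for 1 bladder, and the labels name no drug or hormone given. The transgenic litters came from FVB/N females mated to transgenic males, and the labels name no litters, so litter and genotype cannot be told apart. The records also fall into 2 runs of numbers, the first with SMGA/EGFP 1 to 3 and wild type 1 to 3 and the second with SMAA/EYFP 1 to 3 and wild type 4 to 6. The labels do not say what these runs are, and the differences of the members from wild type are also given with the run as a term.

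Steroid hormones act on cells by binding receptors that are themselves transcription factors. In the absence of hormone, the glucocorticoid receptor (Nr3c1) and its relatives are held by chaperones. With hormone, they bind DNA as pairs. The tissue's enzymes set how much active hormone reaches them. Hsd11b1 makes active corticosterone from its inert 11-keto form and uses NADPH that H6pd supplies in the endoplasmic reticulum, while Hsd11b2 does the reverse and so keeps glucocorticoids off the mineralocorticoid receptor (Nr3c2) in salt-transporting epithelia. The 5-alpha-reductases, Srd5a1 and Srd5a2, turn testosterone into dihydrotestosterone. Esr1 encodes oestrogen receptor alpha, and Pgr, the progesterone receptor, is a well-known target of it. In the bladder these hormones are known for effects on the urothelium, on the detrusor muscle and on sodium transport.

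The sequence just before the transcription start is shown for both annotated starts of Esr1 and for Hsd11b1, because their probe sets lay above background, and for Pgr, because its probe set lay near it. No window of Nr3c1, which also had probe sets above background, or of Hsd11b2 is described here. Each run holds the 250 bases before a start, read 5′ to 3′ on the gene's strand, from RefSeq on build GRCm38.p6. Capitals mark matches to the letters of 3 promoter elements, on either strand and at any distance from the start. The TATA box was searched as TATAAA. The CCAAT box was searched by the letters of its name, and the GC box as GGGCGG. The first Esr1 start has chr10:4611739-4611988 (+ strand), the second has chr10:4709908-4710157 (+), Hsd11b1 has chr1:193242361-193242610 (- strand) and Pgr has chr9:8899583-8899832 (+).
Esr1, first start: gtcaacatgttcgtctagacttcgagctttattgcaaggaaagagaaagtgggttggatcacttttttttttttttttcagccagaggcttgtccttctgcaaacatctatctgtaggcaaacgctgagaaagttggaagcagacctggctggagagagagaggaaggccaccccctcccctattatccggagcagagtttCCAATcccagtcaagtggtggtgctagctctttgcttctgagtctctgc
Esr1, second start: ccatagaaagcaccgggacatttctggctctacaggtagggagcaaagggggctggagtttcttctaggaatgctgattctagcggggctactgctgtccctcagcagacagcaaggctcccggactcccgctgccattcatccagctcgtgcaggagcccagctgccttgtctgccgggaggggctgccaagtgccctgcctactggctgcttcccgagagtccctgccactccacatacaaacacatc
Hsd11b1: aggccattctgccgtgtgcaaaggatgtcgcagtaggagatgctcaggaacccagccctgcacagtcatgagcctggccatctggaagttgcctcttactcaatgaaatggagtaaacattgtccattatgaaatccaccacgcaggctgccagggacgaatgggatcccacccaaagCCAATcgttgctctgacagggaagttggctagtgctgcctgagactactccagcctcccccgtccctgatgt
Pgr: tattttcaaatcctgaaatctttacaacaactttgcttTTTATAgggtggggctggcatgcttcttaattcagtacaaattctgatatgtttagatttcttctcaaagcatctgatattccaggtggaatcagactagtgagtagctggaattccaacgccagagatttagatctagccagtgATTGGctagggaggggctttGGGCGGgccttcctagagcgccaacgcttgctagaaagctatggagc
The Pgr window held 1 match each to the TATA box, the CCAAT box and the GC box. Its TATA match was on the opposite strand and near the end of the window farthest from the start. The windows of Hsd11b1 and of the first Esr1 start held 1 CCAAT box each, and that of the second Esr1 start held none of the 3. Over all 32851 promoter windows of this length, 12.4% held a TATA box, 33.8% a CCAAT box and 32.7% a GC box. The short elements that 1 receptor of a bound pair reads were also searched on both strands. That of the glucocorticoid and progesterone receptors, AGAACA, was in 16.1% of all windows, and that of the oestrogen receptor, GGTCA, in 35.2%. Neither was in these 4 windows. The full palindromes, in which such an element and its inverted copy stand 3 bases apart, contain these letters and so were in none of the 4 either. The glucocorticoid palindrome was in 0.00913% of all windows and the oestrogen palindrome in 0.0639%. Of the other member windows described here, that of Nr3c2 held GGTCA 2 times, and those of Srd5a1 and Srd5a2 held 0. CpG dinucleotides numbered 20 in the Srd5a1 window, 17 in that of Nr3c2 and 12 in that of Srd5a2, against 6 in that of Hsd11b1, 4 and 7 in those of Esr1 and 4 in that of Pgr, where the median over all windows was 6. These letters describe the windows and were not tested against expression.

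The arrays were alike in range. Median intensity was 229.4 to 305.9 per array, and the correlation of log2 values was 0.953 to 0.970 within groups and 0.946 to 0.973 between them. The tissue carried its own markers: 16 of 16 urothelial, 13 of 13 smooth muscle and 12 of 12 fibroblast marker genes with a named probe set were above background on all 12 arrays. Of the 8 kidney and adrenal markers, 0 were, and of the 8 prostate, urethra and Wolffian duct markers 1 was. Of the 8 skeletal muscle markers 5 were, and of the 5 adipocyte markers 3 were. Whether these came from neighbouring tissue was not tested. One array went against its label. Wild type 4, labelled male, had an Xist intensity of 29604, against 80.1 to 250.4 on the other 11 arrays. Its Y-linked genes were low, with 26.7 for Eif2s3y against 3284 to 5096 on the others. On that array the 6 leading member probe sets lay within the range of the other wild-type arrays except that of Nr3c1, which was highest there, at 6486 against 5037 to 6451.

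Background was set on each array by 82 probe sets of 74 olfactory, vomeronasal, trace amine and bitter taste receptor genes. These are best known from sensory cells, although bitter taste receptors have also been reported in bladder muscle. The limit was the 95th percentile of their intensity, 159.7 to 268.4 by array. A probe set was called above background where it passed this limit on all 12 arrays, near it on 1 to 11 and at it on 0. By this rule 6 of the 15 member probe sets (40.0%) were above background, 5 near and 4 at, against 44.6% above among all 45037. The 6 belonged to 3 genes: 4 to Nr3c1 and 1 each to Hsd11b1 and Esr1. Hsd11b2 (10 of 12 arrays), Pgr (8 of 12) and Nr3c2 (3 of 12) were near background by their highest probe sets. With a limit at the 99th percentile, 3 probe sets remained, of Hsd11b1 and Nr3c1, and with 1 at the 90th percentile there were 7, of which the added one was Pgr. Some chemosensory probe sets are bright, since the 99th percentile reached 2920 on 1 array.

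**Figure D1:**
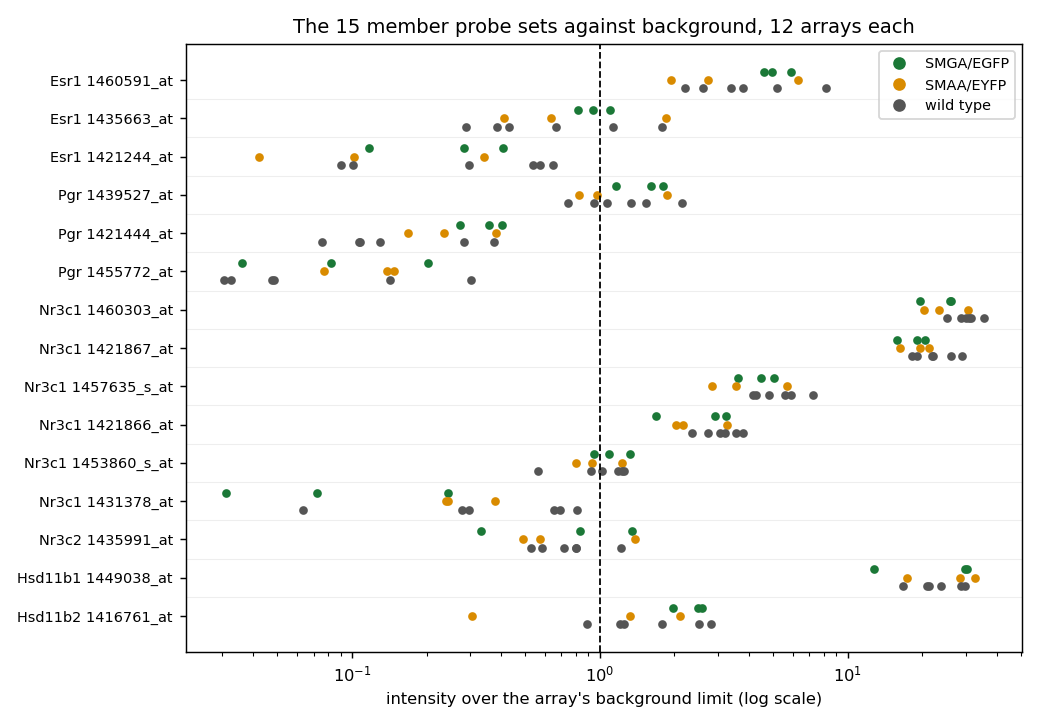
The 15 member probe sets are listed down the page, and the axis along the bottom is intensity divided by the background limit of its own array, on a log scale; each point is 1 of 12 arrays, coloured by group. All 12 points of 6 probe sets (4 of Nr3c1, 1 of Hsd11b1, 1 of Esr1) lie right of the dashed line at 1, and those of 4 lie left of it.

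Nr3c1, the glucocorticoid receptor, was detected in every bladder, with 4 of 6 probe sets above background on all arrays. Its brightest, 1460303_at, gave intensities of 4336, 4554 and 4807 in SMGA/EGFP bladders, of 5110, 5234 and 5442 in SMAA/EYFP bladders, and of 5381, 5037, 5692, 6486, 6451 and 6032 in wild-type bladders. These were 19.5 to 35.6 times the background limit of their arrays. All 3 SMGA/EGFP values lay below all 6 wild-type values, and the SMAA/EYFP values fell inside the wild-type range.

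On the log2 scale, 1460303_at measured 12.16 ± 0.04 in SMGA/EGFP and 12.51 ± 0.14 in wild type (SD, n = 3 and 6). The difference was -0.35 ± 0.09 (SE), with a 95% interval of -0.55 to -0.15, and it did not pass the threshold of 0.05 (limma adjusted p = 0.567). A fit that included the run gave -0.23 ± 0.09 (limma adjusted p = 1.0). In SMAA/EYFP the level was 12.36 ± 0.04 (SD, n = 3). This lay -0.15 ± 0.09 from wild type (limma adjusted p = 0.991), or -0.26 ± 0.09 with the run as a term (limma adjusted p = 0.967). Without wild type 4, its highest array, SMGA/EGFP against wild type gave -0.32 (limma adjusted p = 0.804). The 3 wild-type bladders of the second run, at 6032 to 6486, all lay above those of the first, at 5037 to 5692. The difference was 0.23 ± 0.09 (limma adjusted p = 0.580), and between these runs 13.5% of all tested probe sets did not overlap.

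The other 3 probe sets of Nr3c1 above background gave differences of the same sign. In SMGA/EGFP against wild type they were -0.29 ± 0.10 for 1421867_at, -0.32 ± 0.18 for 1457635_s_at and -0.37 ± 0.19 for 1421866_at, with limma adjusted p of 0.703 to 0.745. In SMAA/EYFP against wild type they were -0.09 ± 0.10, -0.24 ± 0.18 and -0.12 ± 0.19 in that order. Once the run was a term, these 3 gave -0.25, -0.22 and -0.27 in SMGA/EGFP and -0.14, -0.35 and -0.22 in SMAA/EYFP, so that all 4 probe sets were still below 0 in both comparisons. The probe sets share a transcript and the same arrays, so they are not independent measurements. The other 2 gave little signal: 1453860_s_at passed the limit on 7 of 12 arrays and 1431378_at on 0.

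Esr1, the oestrogen receptor alpha gene, was above background through 1 of its 3 probe sets. 1460591_at gave 1018, 859 and 1095 in SMGA/EGFP bladders, 424, 1081 and 733 in SMAA/EYFP bladders, and 1390, 846, 604, 878, 589 and 443 in wild-type bladders. The groups overlapped, and both the highest and nearly the lowest values came from wild type. SMGA/EGFP bladders differed from wild-type ones by 0.35 ± 0.29, with a 95% interval of -0.27 to 0.97 (limma adjusted p = 0.806). For SMAA/EYFP the difference was -0.05 ± 0.29, with an interval of -0.67 to 0.57 (limma adjusted p = 0.998). Adding the run as a term made these 0.11 ± 0.32 and 0.18 ± 0.32. Of its other probe sets, 1435663_at passed the background limit on 4 of 12 arrays, with its highest values in SMAA/EYFP 2 (316.6) and wild type 1 (303.4), and 1421244_at on 0.

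Pgr, the progesterone receptor, lay close to the limit of detection. 1439527_at gave 257, 282 and 335 in SMGA/EGFP bladders, 214, 319 and 222 in SMAA/EYFP bladders, and 366, 251, 214, 192, 241 and 190.3 in wild-type bladders. It passed the background limit in 3 of 3 SMGA/EGFP, 1 of 3 SMAA/EYFP and 4 of 6 wild-type bladders. The differences from wild type were 0.19 ± 0.22 and 0.10 ± 0.22 (limma adjusted p = 0.859 and 0.994), or 0.04 ± 0.25 and 0.25 ± 0.25 with the run as a term. The other 2 Pgr probe sets were at background on all arrays.

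Nr3c2, the mineralocorticoid receptor, was not separated from background. Its only probe set, 1435991_at, gave 185, 234 and 61.3 in SMGA/EGFP bladders, 125, 237 and 132 in SMAA/EYFP bladders, and 208, 131, 114, 206, 119 and 117 in wild-type bladders. It passed the limit in 1 bladder of each group. Its mean lay below the filter on dim probe sets, so it was fitted only without that filter, where SMGA/EGFP gave -0.08 ± 0.36 against wild type and SMAA/EYFP gave 0.12 ± 0.36 (limma adjusted p = 0.985 and 0.998). The run as a term left these at -0.0817 ± 0.42 and 0.12 ± 0.42.

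**Figure D2:**
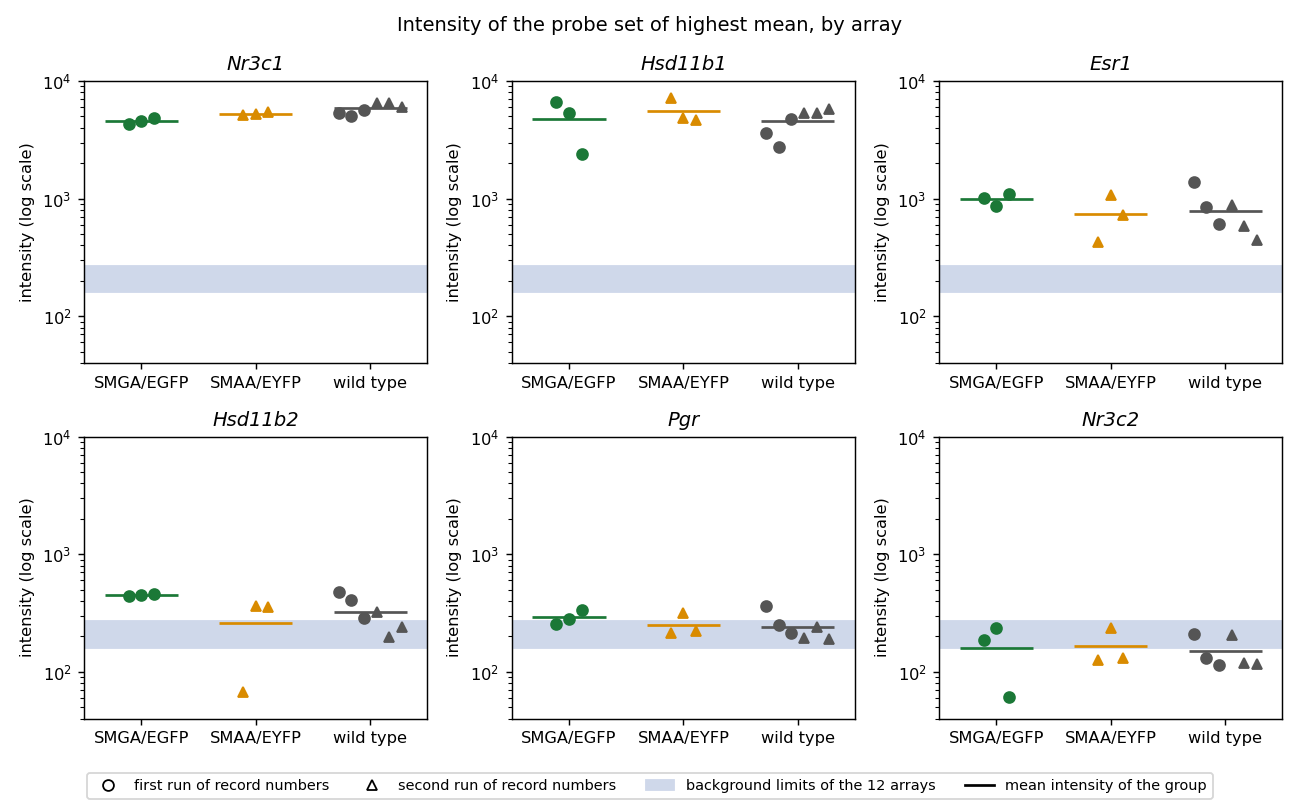
Each panel plots the deposited intensity (log scale) of 1 gene's probe set of highest mean for the 3 SMGA/EGFP, 3 SMAA/EYFP and 6 wild-type arrays; circles are the first run of record numbers, triangles the second, lines the group means, and the band spans the background limits of the 12 arrays (159.7 to 268.4). Nr3c1, Hsd11b1 and Esr1 lie above the band on all arrays, while Hsd11b2, Pgr and Nr3c2 reach into or below it; levels of different probe sets are not comparable with each other.

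Hsd11b1, which regenerates active glucocorticoid, was well above background and varied widely between bladders of 1 group. 1449038_at gave 6636, 5299 and 2378 in SMGA/EGFP bladders, 7148, 4891 and 4680 in SMAA/EYFP bladders, and 3626, 2731, 4761, 5391, 5343 and 5777 in wild-type bladders. The lowest value was 12.8 times and the highest 32.6 times the background limit of its array. SMGA/EGFP held both the lowest array of all 12 and the second highest, and the groups overlapped.

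The SD within groups was 0.52 on the log2 scale, against a median of 0.18 over 3041 probe sets whose mean lay within 0.5 of its own, and 98.4% of these had a lower SD. SMGA/EGFP minus wild type was -0.02 ± 0.30, with a 95% interval of -0.67 to 0.63 (limma adjusted p = 0.991). SMAA/EYFP minus wild type was 0.29 ± 0.30, with an interval of -0.36 to 0.94 (limma adjusted p = 0.994). In the fit with the run the values were 0.28 ± 0.32 and -0.01 ± 0.32, so the sign turned in both. Without SMGA/EGFP 3, which has the lowest value, the first difference was 0.43. Among wild-type bladders the second run, at 5343 to 5777, lay above the first, at 2731 to 4761, by 0.60 ± 0.32 (limma adjusted p = 0.645). Nr3c1 differed from this in its spread, since its SD within groups was 0.11 and only 14.1% of probe sets of like mean had a lower one.

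Hsd11b2, which inactivates glucocorticoid, was near background. 1416761_at gave 439, 450.1 and 461 in SMGA/EGFP bladders, 66.7, 361 and 355 in SMAA/EYFP bladders, and 477, 409.7, 286, 324, 199.6 and 242 in wild-type bladders. It fell short of the background limit on SMAA/EYFP 1 and on 1 wild-type array. All SMGA/EGFP values lay above all SMAA/EYFP values and inside the wild-type range. SMGA/EGFP against SMAA/EYFP gave a log2 difference of 0.96 ± 0.46 with a 95% interval of -0.04 to 1.96 (limma adjusted p = 0.553). The fit with the run gave 0.48 ± 0.65. Against wild type, SMGA/EGFP gave 0.43 ± 0.40 and SMAA/EYFP gave -0.53 ± 0.40 (limma adjusted p = 0.827 and 0.991). The run as a term brought these to 0.19 ± 0.46 and -0.29 ± 0.46. Without SMAA/EYFP 1 the SMAA/EYFP difference turned to 0.20. The SD within groups was 0.66, and 93.8% of probe sets of like mean had a lower one.

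Over the whole array, few probe sets were called in any comparison, and none of the 8 member probe sets that passed the filter (22518 did in all) was among them. In SMGA/EGFP against wild type 14 probe sets (0.0622%) passed limma's adjusted threshold, and the arrays of the 2 groups did not overlap in 2.73%. Of the members 0 of 8 passed, the lowest adjusted p being 0.567, and 1 of 8 did not overlap (Nr3c1). Their median difference was -0.16, against -0.01 over all tested. In SMAA/EYFP against wild type 0 probe sets (0.0%) passed in limma, 1082 had an unadjusted p under 0.05 and 3.0% did not overlap. Of the members 0 passed and 0 of 8 were without overlap, and their median was -0.10.

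Between the transgenic groups, 18 probe sets (0.0799%) passed in SMGA/EGFP against SMAA/EYFP, and 14.5% did not overlap. Of the members 0 passed and 2 of 8 did not overlap, Hsd11b2 and 1460303_at of Nr3c1. With 8 probe sets, 4 of them for 1 gene, such a count is read beside the array's share only. For 1460303_at the difference was -0.20 ± 0.11 (limma adjusted p = 0.586), which became 0.03 ± 0.13 with the run as a term. In the second against the first run of wild-type bladders 0 probe sets (0.0%) passed, 1838 had an unadjusted p under 0.05 and 13.5% did not overlap, 2 of 8 members among them (Hsd11b1 and 1460303_at of Nr3c1). This count rests on wild type 3: without it 430 probe sets passed and still 0 members, the lowest adjusted p being 0.241. With both transgenic groups together against wild type, a comparison added with the values known, 1 probe set (0.00444%) passed and 0 members did. Within the first run, SMGA/EGFP and wild type did not overlap in 6.45% of probe sets and in 1 of 8 members. Within the second run, SMAA/EYFP and wild type did not overlap in 11.9%, and in 2 of 8 members, both of Nr3c1 (1460303_at and 1421866_at).

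**Figure D3:**
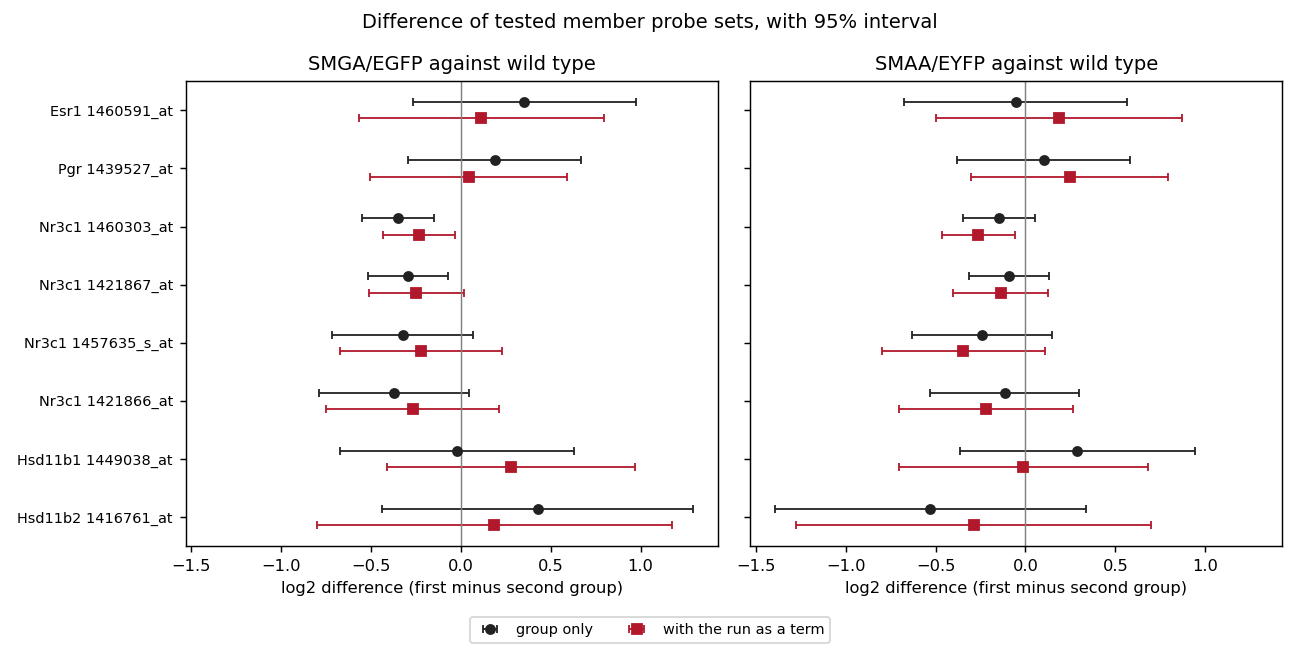
Log2 difference of the 8 member probe sets that passed the filter, as points with 95% intervals from limma, for SMGA/EGFP minus wild type (left) and SMAA/EYFP minus wild type (right); circles are the fit on group alone and squares the fit with the run as a term. The 4 Nr3c1 probe sets lie left of 0 in every fit shown, the interval of 1460303_at leaves out 0 in 3 of 4, and Hsd11b1 changes sides with the run as a term.

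Between the 6 genes' leading probe sets, 15 pairs were compared over the 12 arrays. Esr1 and Hsd11b2 varied together, with Pearson's r = 0.75 (permutation p = 0.00049, adjusted over the 15 pairs 0.00735) and Spearman's rho = 0.78 (permutation p = 0.00396, adjusted 0.0594). Leaving out the 2 arrays farthest from the median of Esr1 gave r = 0.74. Leaving out the 2 farthest in Hsd11b2, of which the low SMAA/EYFP 1 is one, gave r = 0.80. Within the first and second runs r was 0.74 and 0.72, and with the means of each group within its run removed it was 0.71. Many genes followed Esr1 closely, and 97.2% of the tested genes had a lower r with it than Hsd11b2. No other pair had an adjusted p under 0.05. The next by size was Esr1 with Pgr, at r = 0.61 (permutation p = 0.0348, adjusted 0.261) and rho = 0.45 (permutation p = 0.14). It was followed by Hsd11b1 with Hsd11b2, the opposed enzymes, at r = -0.55 (permutation p = 0.0751, adjusted 0.286) and rho = -0.65 (permutation p = 0.0254, adjusted 0.189).

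**Figure D4:**
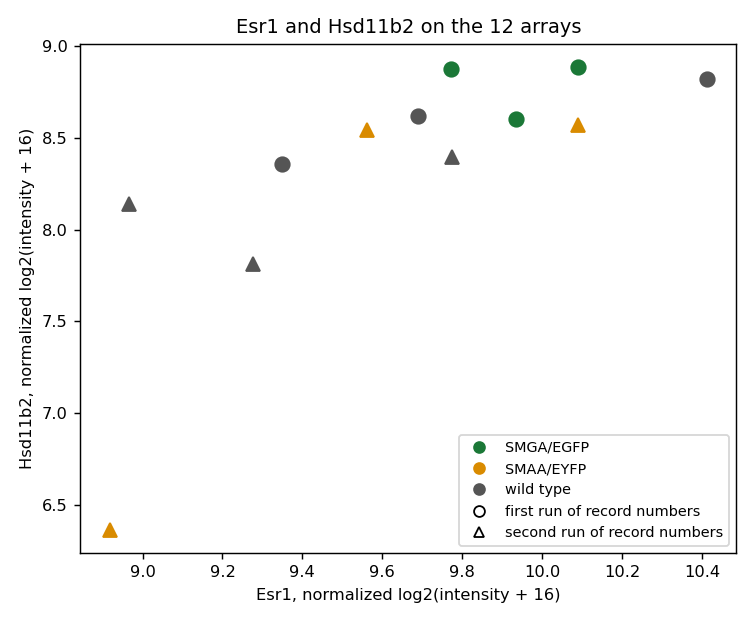
Each point is 1 of 12 arrays, with the normalized log2 level of Esr1 along the bottom and that of Hsd11b2 up the side; colours are groups, circles the first and triangles the second run of record numbers. The arrays run from low in both to high in both (r = 0.75), SMAA/EYFP 1 stands lowest in both, and SMGA/EGFP arrays lie toward the upper right.

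Some marker lists of other cells varied with these 2 genes, though most of these relations did not reach an adjusted p under 0.05. Neurons of the pelvic ganglion and their Schwann cells lie against the bladder wall, and the summed intensity of 7 of their markers was 15348, 22280 and 15535 on the SMGA/EGFP arrays, 6299, 10031 and 18193 on the SMAA/EYFP arrays, and 26796, 21060, 7912, 8186, 5509 and 6306 on the wild-type arrays. Of the 7, Stmn2, a neuronal microtubule regulator (618 to 12739), and Erbb3, a receptor of Schwann cells and also of epithelium (4010.2 to 7163), were above background on all 12 arrays, and 0 were at background on all. The list's score had r = 0.66 with Hsd11b2 (rho = 0.85, permutation p = 0.00309 and 0.00106, adjusted over 54 relations 0.118 and 0.0451) and r = 0.68 with Esr1 (rho = 0.63, permutation p = 0.0161 and 0.0319, adjusted 0.118 and 0.186). Within the 2 runs r was 0.74 and 0.47 for Hsd11b2, and 0.73 and 0.41 for Esr1, and without the 2 arrays farthest in the list's score it was 0.63 and 0.54. Esr1 ran against the smooth muscle list at r = -0.73 (permutation p = 0.00719, adjusted 0.118) and rho = -0.66 (permutation p = 0.0219, adjusted 0.169), and at r = -0.61 without the 2 farthest arrays. Hsd11b2 did so too by rank, at rho = -0.82 (permutation p = 0.00167, adjusted 0.0451), with r = -0.52 (permutation p = 0.0588, adjusted 0.212) and r = -0.50 without the 2 farthest arrays. Within the 2 runs its r was -0.83 and -0.37. Hsd11b2 had like ranks with other lists, at rho = -0.73 for the endothelial and -0.71 for the leukocyte list (permutation p adjusted 0.127 for both). Their r was -0.54 and -0.31. The 13 smooth muscle markers summed to 355428 to 463570 in SMGA/EGFP, 355170 to 456848 in SMAA/EYFP and 366796 to 452696 in wild type, so the groups did not separate. Whole bladders were used, and fewer cells of a type and less RNA per cell cannot be told apart. The part of tissue makeup in the values of Esr1 and Hsd11b2 was not tested.

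In SMGA/EGFP bladders, where Nr3c1 read lowest, the score of the 7 mesothelial markers also stood apart. This score was -1.24 to -0.97 in SMGA/EGFP, 0.40 to 1.05 in SMAA/EYFP and -0.13 to 0.60 in wild type, so no pooled correlation is given. These 7 markers, 4 of them above background on all arrays, summed to 42721 to 50941 in SMGA/EGFP, 64457 to 73188 in SMAA/EYFP and 48458 to 61353 in wild type. Most of this sum was Krt19, a keratin that the urothelium also makes (26517 to 40225 over the 12 arrays), and Upk3b (13672 to 25457). Of the 7, 3 fell in SMGA/EGFP against wild type, with log2 differences of -2.74 for Gpm6a, -2.75 for Lrrn4 and -2.06 for Muc16 (limma adjusted p = 0.00557, 0.00946 and 0.0167). In the fit with the run they differed by -2.27, -2.26 and -1.63 (limma adjusted p = 0.0197, 0.0345 and 0.0553), so that Muc16 no longer passed. These 3 were near background, passing the limit on 11 (Gpm6a), 9 (Lrrn4) and 10 (Muc16) of 12 arrays. Lrrn4, at 210.6, 91.7 and 181.3 in SMGA/EGFP, lay below the limits there of 222.1, 174.2 and 185.6. The other 4 did not pass, with -1.41 for Msln, -0.47 for Wt1, -0.13 for Upk3b and 0.0047 for Krt19. Leaving out 1 array at a time, 1 to 4 of the 7 passed, 1 being the count without SMGA/EGFP 2, 2 without SMGA/EGFP 1, SMGA/EGFP 3 or wild type 3, 4 or 6, and 4 without wild type 1. With the endothelial list, 1460303_at of Nr3c1 had r = 0.68 (permutation p = 0.016, adjusted 0.118) and rho = 0.62 (permutation p = 0.0363, adjusted 0.186), and r = 0.62 without the 2 farthest arrays. By run, r was 0.72 and 0.60. In SMGA/EGFP against wild type all 9 endothelial markers lay below 0 (median -0.34), as did 1460303_at. The same held in SMAA/EYFP against wild type, where all 9 markers (median -0.23) and 1460303_at lay below 0. The pooled r thus includes the offset between groups, and no value with group means removed is given. These markers, all above background on all 12 arrays, summed to 14007 to 18790 in SMGA/EGFP, 15540 to 21460 in SMAA/EYFP and 18783 to 22401 in wild type. The leukocyte list had r = 0.69 (permutation p = 0.015, adjusted 0.118) and rho = 0.50 (permutation p = 0.106) with Hsd11b1. Without the 2 farthest arrays r was 0.42, and within the runs it was 0.71 and -0.27. The leukocyte list was not particular to Hsd11b1. It had r = 0.66 with Nr3c1 and -0.68 with Pgr (permutation p adjusted 0.118 for both), and rho = 0.69 and -0.59. Its 9 markers summed to 8907 to 14868 in SMGA/EGFP, with the lowest value in SMGA/EGFP 3, where Hsd11b1 was also lowest, to 12436 to 13902 in SMAA/EYFP and to 12246 to 16253 in wild type. Their part in the values was not tested.

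The genes most like each member above background, by Pearson's r over the 12 arrays, were named without reference to what they do. For Esr1 they were Zfp866 (0.96), Ahcyl1 (0.96) and Pik3r1 (0.95). For Nr3c1 they were Ndufs1 (0.92), Qk (0.92) and Zbtb24 (0.91), and for Hsd11b1 Xdh (0.96), Dpep1 (0.95) and Aloxe3 (0.92). As the leading values out of many genes, these coefficients are high by selection.

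Of the other receptors of steroids and their relatives, 8 had a named probe set. Above background on all arrays were 3, with 3 near and 2 at. Over all 18193 genes the share with a probe set above background on all arrays was 60.3%. The 3 above were Esrra, the oestrogen-related receptor alpha (533 to 1172 over the 12 arrays), and the membrane proteins Pgrmc1 (31672 to 37426) and Pgrmc2 (4455 to 5576). Near background were Gper1 and Esrrb (7 of 12 arrays each) and Esrrg (5 of 12). Esr2, oestrogen receptor beta (12.2 to 48.6), and Vdr, the vitamin D receptor (45.7 to 182.4), were at background on all arrays. For Esrra, SMGA/EGFP minus wild type was -0.55 ± 0.18 (limma adjusted p = 0.680), or -0.44 ± 0.20 with the run, and SMAA/EYFP minus wild type -0.01 ± 0.18. The chaperones and coregulators on which the receptors depend were above background on all arrays in 11 of 11 cases, against the 60.3% of all genes. Among them were Hsp90aa1, the chaperone that holds unliganded receptors (24017 to 29928), and Fkbp4 (2191 to 3493), a co-chaperone of the glucocorticoid and progesterone receptors. None of the 11 passed in any comparison, and the smallest p in SMGA/EGFP against wild type was that of Nrip1, a corepressor, at 0.39 ± 0.20 (limma adjusted p = 0.729), or 0.15 ± 0.20 with the run.

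Among 30 other enzymes and carriers of steroids with a named probe set, 11 were above background on all arrays, 4 near and 15 at. This lay below the share of 60.3% above background over all genes. The enzymes of new steroid synthesis were mostly at the low end. Cyp17a1, which makes androgen precursors (4.83 to 154.5), Cyp11b1, which completes corticosterone (35.1 to 148.1), and Cyp11b2, which makes aldosterone (25.2 to 172.7), were at background on all arrays, as were Hsd3b1 and Hsd3b2. Cyp11a1, the first step from cholesterol, passed on 1 of 12 arrays. Cyp21a1 (9 of 12) and Star, the mitochondrial cholesterol carrier (10 of 12), were near background. Enzymes that convert existing steroids, and their relatives, were divided. Hsd17b2, which inactivates oestradiol and testosterone (2818 to 5978), was above background on all arrays. So were Hsd3b7, Hsd17b4, Hsd17b7, Hsd17b10, Hsd17b11 (15772 to 23652), Hsd17b12 and Akr1c14. At background on all arrays were Hsd17b1, Hsd17b3, Hsd17b6, Akr1c6, Akr1c20, Akr1c21, Sult1e1 and Sult2b1, and Akr1c18 passed on 1 of 12. H6pd, the NADPH source of Hsd11b1 (2422 to 4398), was above background. Also above it was Srd5a3 (1701 to 2519), a relative of the 5-alpha-reductases known for its part in protein glycosylation. For Hsd17b2, SMGA/EGFP minus wild type was 0.41 ± 0.17 and SMAA/EYFP minus wild type 0.34 ± 0.17 (limma adjusted p = 0.718 and 0.991), or 0.45 ± 0.21 and 0.29 ± 0.21 with the run. Of 12 tested, 0 passed in any comparison. The median difference of SMGA/EGFP from wild type was 0.11, or 0.09 with the run as a term. For SMAA/EYFP it was 0.15, or 0.05 with the run.

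Known targets of the glucocorticoid and mineralocorticoid receptors were above background on all arrays in 21 of 24 cases, against the 60.3% of all genes. In SMGA/EGFP against wild type 0 of 22 tested passed, 20 lay above 0 and 2 below, and their median difference was 0.31, against -0.01 over all tested. The fit with the run gave a median of 0.33. SMGA/EGFP 1 carried much of this: it had the highest value of the 12 arrays in 15 of the 24 genes, and without it the median was 0.16, with 16 above 0 and 6 below. The 4 of smallest p were Angptl4, a lipoprotein lipase inhibitor (-1.30 ± 0.29, limma adjusted p = 0.340), the clock gene Per1 (0.84 ± 0.23, 0.592), the kinase gene Sgk1 (0.75 ± 0.26, 0.698) and Pdk4, which restrains glucose oxidation (0.52 ± 0.23, 0.718). With the run these were -1.24, 0.93, 0.52 and 0.55, and without SMGA/EGFP 1 they were -1.01, 0.49, 0.41 and 0.21. Leaving out SMGA/EGFP 3, 1 of the 22 passed, which was Angptl4 (-1.68, limma adjusted p = 0.0452). In SMAA/EYFP against wild type 0 of 22 passed, 13 lay above 0 and the median was 0.03. Without SMAA/EYFP 1, 5 lay above 0 and the median was -0.0513. The list's summed intensity was 165565 to 300269 in SMGA/EGFP, 150485 to 250275 in SMAA/EYFP and 162229 to 209794 in wild type, so the groups overlapped. Many of these genes answer to fasting and stress as well.

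Known targets of the sex steroid receptors were above background on all arrays in 12 of 18 cases, a share near the 60.3% of all genes. In SMGA/EGFP against wild type 0 of 12 tested passed, with a median difference of 0.13, and 8 were above 0. With the run as a term the median was 0.0568 and 7 were above 0, and without SMGA/EGFP 1 the median was 0.0782. The 2 of smallest p were Rarb, a retinoic acid receptor gene (0.61 ± 0.23, limma adjusted p = 0.710), and Myc (0.39 ± 0.17, limma adjusted p = 0.718), which gave 0.35 ± 0.24 and 0.28 ± 0.19 with the run. In SMAA/EYFP against wild type 0 of 12 passed and the median was -0.01, or 0.08 with the run as a term, and Tmprss2, an androgen-regulated protease in prostate, had the smallest p (0.26 ± 0.12, limma adjusted p = 0.991), with 0.29 ± 0.15 once the run was a term. Fkbp5, a co-chaperone gene that answers to glucocorticoids, progesterone and androgens and stands in 3 of the lists, gave 0.33 ± 0.25 in SMGA/EGFP bladders, with 0.0798 when SMGA/EGFP 1 was left out. For SMAA/EYFP it gave 0.32 ± 0.25, or 0.0312 without SMAA/EYFP 1.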

How the data were processed

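Per the labels' protocols, RNeasy columns were used to clean up total RNA from 12 bladders, which was amplified once and labelled with biotin. Each probe set has 1 deposited value per array, an intensity on a linear scale. The submitters' processing notes name GCOS; the version, algorithm and detection calls are not given in the sources used here. The mean between the 2nd and 98th percentile was 1499.8 to 1500.0 on every array, so each had been scaled by 1 factor.

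From these, log2(intensity + 16) was quantile-normalized, 64 controls were left out, and the 22518 of 45037 probe sets with a mean above the median (log2 8.02) were tested in limma 3.58.1 (R 4.3.3; lmFit, eBayes with trend, two-sided). The spread was estimated from all 12 arrays together. Adjusted p-values are Benjamini-Hochberg values over all tested. Differences are on the log2(intensity + 16) scale, which understates those of dim probe sets, and 8.35% to 10.6% of values per array lay below the pseudocount. The procedure was tested on simulated data with independent noise and no difference between runs, a simpler setting than these data. With 3, 3 and 6 arrays, their number limits the precision, and limma's p-values set each difference against the spread between arrays. Symbols came from the platform annotation (34945 probe sets with 1 symbol, 932 with several, which were not used, and 9160 not listed), checked against RefSeq on GRCm38.p6, which changed 0 symbols. Correlations used 100000 permutations, two-sided. Promoter windows came from RefSeq.

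Named were all members, up to 4 genes of smallest p per pathway list and comparison, and for each member above background the 3 genes most like it. Where 1 probe set stands for a gene, it is that of highest mean. Members and lists were chosen with earlier results of these data known. Alternatives were other normalization, pseudocounts (1 and 64), filters, 1 probe set per gene, eBayes options, only the arrays compared, the run as a term, within one run, each array left out, and other background limits.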

Additional observations from a re-analysis of the deposited data

Results flagged for a closer look

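In groups of 4 to 10 arrays, here the 6 wild-type arrays, a value was picked out where its gap to the next was a large part of the group's range by Dixon's criterion. Chance does this in about 1 in 20 groups. Of the 15 member probe sets, 0 were picked out. Wild type 4 was picked out in 4 of 4 genes that check the labelled sex. Its Xist intensity was 29603.7, against 127.65 to 250.41 on the other 5 wild-type arrays. Its Eif2s3y was 26.73 against 3786 to 5096, its Kdm5d 28.03 against 938 to 1384, and its Uty 48.59 against 808 to 1049. The label of this array is male. Leaving it out turned the sign of 1 tested member difference, that of Hsd11b1 in SMGA/EGFP against wild type, which was 0.03 without it and -0.02 with it.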

How the results depend on the processing

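No member passed limma's threshold under any of 995 alternative values. Of these, 950 kept the sign and 45 reversed, and the lowest adjusted p was 0.308 in SMGA/EGFP against wild type, 0.682 in SMAA/EYFP against wild type, 0.462 between the transgenic groups and 0.241 between the wild-type runs. The 4 tested Nr3c1 probe sets kept their sign against wild type under all alternatives run. With the run as a term (within one run gives the same values), SMGA/EGFP against wild type gave 0.28 for Hsd11b1, and SMAA/EYFP against wild type gave -0.0117 for Hsd11b1 and 0.18 for Esr1. Between the transgenic groups, the run term gave -0.0705 for Esr1, -0.20 for Pgr, 0.0295 for Nr3c1 1460303_at, 0.12 for 1457635_s_at and 0.29 for Hsd11b1. Among the dim probe sets, fitted without a filter, it gave -0.23 for Pgr 1455772_at (SMGA/EGFP against wild type), 0.0383 for Nr3c1 1431378_at (SMAA/EYFP against wild type), and -0.52 for Esr1 1435663_at and -0.36 for Pgr 1421444_at (between transgenic groups). With the run as a term and without wild type 4, an alternative added after seeing the data, Hsd11b1 was 0.28 and -0.0243 and Esr1 0.40 against wild type in the same comparisons. Between the transgenic groups that setting gave -0.29 for Esr1, -0.12 for Pgr, 0.0082, 0.15 and 0.0003 for 1460303_at, 1457635_s_at and 1421866_at of Nr3c1, and 0.30 for Hsd11b1, and for Hsd11b2 it gave 0.0191 in both transgenic groups against wild type. Values as deposited gave 0.0026 for 1457635_s_at between the transgenic groups. The cause of these turns was not tested.

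Leaving out 1 array at a time, Hsd11b1 ran from -0.34 to 0.43 in SMGA/EGFP against wild type, -0.63 to 0.14 between the transgenic groups and -0.0253 to 0.36 in both against wild type. Hsd11b2 ran from -0.90 to 0.20 in SMAA/EYFP and -0.24 to 0.32 in both against wild type, Esr1 from -0.34 to 0.25 and Pgr from -0.0615 to 0.20 in SMAA/EYFP against wild type. Between the transgenic groups Pgr ran from -0.0518 to 0.26, 1457635_s_at from -0.25 to 0.0104 and 1421866_at from -0.40 to 0.0071.

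Over all probe sets, the 14 calls in SMGA/EGFP against wild type became 5 with a filter at the 75th percentile, 9 with only the arrays compared, 1 within one run, 2 with the run as a term without wild type 4, and 6 to 20 with 1 array left out. The 0 calls in SMAA/EYFP against wild type became 5 with arrays centred on their median and stayed 0 with any array left out. The 18 between the transgenic groups became 10 at the 75th percentile, 2 with the run as a term, 1 with the run and without wild type 4, and 4 to 21 with 1 array left out. The 0 between wild-type runs became 1 with no filter or a filter at the 25th percentile, and 0 to 430 with 1 array left out. The 1 in both transgenic groups became 0 with median centring and 0 with 1 probe set per gene. The 6 member probe sets above background became 3 at the 99th percentile and stayed 6 with any array left out. For the gene lists, values with the run as a term or with 1 array left out were added after seeing the data and stand beside the lists. No paired analysis was possible because replicate numbers only follow the order of the records. With 3 to 6 arrays a group, wide intervals limit what the near-background genes can show.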
